A study of Danio rerio with 8 samples.

Results

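Baseline expression was described in the control larvae of the *elipsa* study, which were 4 of its 8 libraries and were chosen by their label alone. Each control library came from a different clutch and from a tube of circa 30 untreated whole zebrafish larvae at 4 dpf. The parents were heterozygous for the *elipsa/traf3ip1* tp49d allele, so each tube held a mixture of wild-type larvae and larvae with 1 mutant copy (+/-), in a ratio that the labels do not give. The other 4 libraries, of *elipsa* mutants, are not described below. They did enter the authors' gene filter and scaling, which ran over all 8 libraries. Control 1 to control 4 denote the libraries of clutch 1 to clutch 4. With 1 library per clutch, the clutch, the genotype mix of the tube and its preparation cannot be told apart, and the hour of collection is not given in the sources used here. All statements on variation are therefore descriptions of 4 libraries, without a test.

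At 4 dpf the zebrafish larva has hatched and swims freely. Skeletal muscle fills most of the trunk, the retina responds to light, and liver, exocrine pancreas and intestine take up their digestive functions around this stage while the yolk is still being consumed. RNA of whole larvae mixes all of these tissues, and fewer cells of a type and less RNA per cell cannot be told apart.

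The deposited table listed 20409 genes as log2 CPM (counts per 1000000 fragments). Every control library ran between -5.02 and 14.04, and the linear values summed to between 997999 and 998007 CPM, so that the libraries shared practically 1 distribution of values and a gene could differ between them only by its rank. The values were not divided by gene length, and levels are therefore compared between genes as reads, not as molecules. Values shared by many genes within a library were evenly spaced, at 15.7 to 16.4 steps per CPM, as whole fragments in libraries of that depth (15.7 to 16.4 times 1000000) would give. The median gene had a mean of 3.81 log2 CPM, and 1848 genes, 9.05%, had a mean below 1. The 10 genes of highest mean made up 7.91% of each library's sum on average and the highest 100 made up 25.5%. *traf3ip1*, the gene mutated in the line, had 3.03, 2.63, 2.81 and 2.78 log2 CPM in controls 1 to 4, a mean of 2.81 ± 0.16 (SD, n = 4).

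Tissue programmes were read through 66 lists of marker and pathway genes, and each list was described by the median level of its measured members, by its share of the library's sum, and by how many members lay among the 2040 genes (10.0%) of highest mean. Fast skeletal muscle was the most abundant tissue programme by both measures. Genes of its sarcomere had a median of 9.2 log2 CPM, 30 of 40 members lay among these highest 10.0%, and together they took 7.58% ± 0.595 of the sum (SD, n = 4). Muscle calcium handling and creatine kinase genes added 2.57% ± 0.076, and cytosolic ribosomal proteins, the housekeeping programme of highest level, took 5.13% ± 0.338 with 75 of 79 members in the top 10.0%. Superficial epidermis with its keratins took 2.26% ± 0.185, apolipoproteins 1.67% ± 0.136, hepatocyte genes 1.25% ± 0.235 and fibrillar matrix 1.25% ± 0.118.

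**Figure D1:**
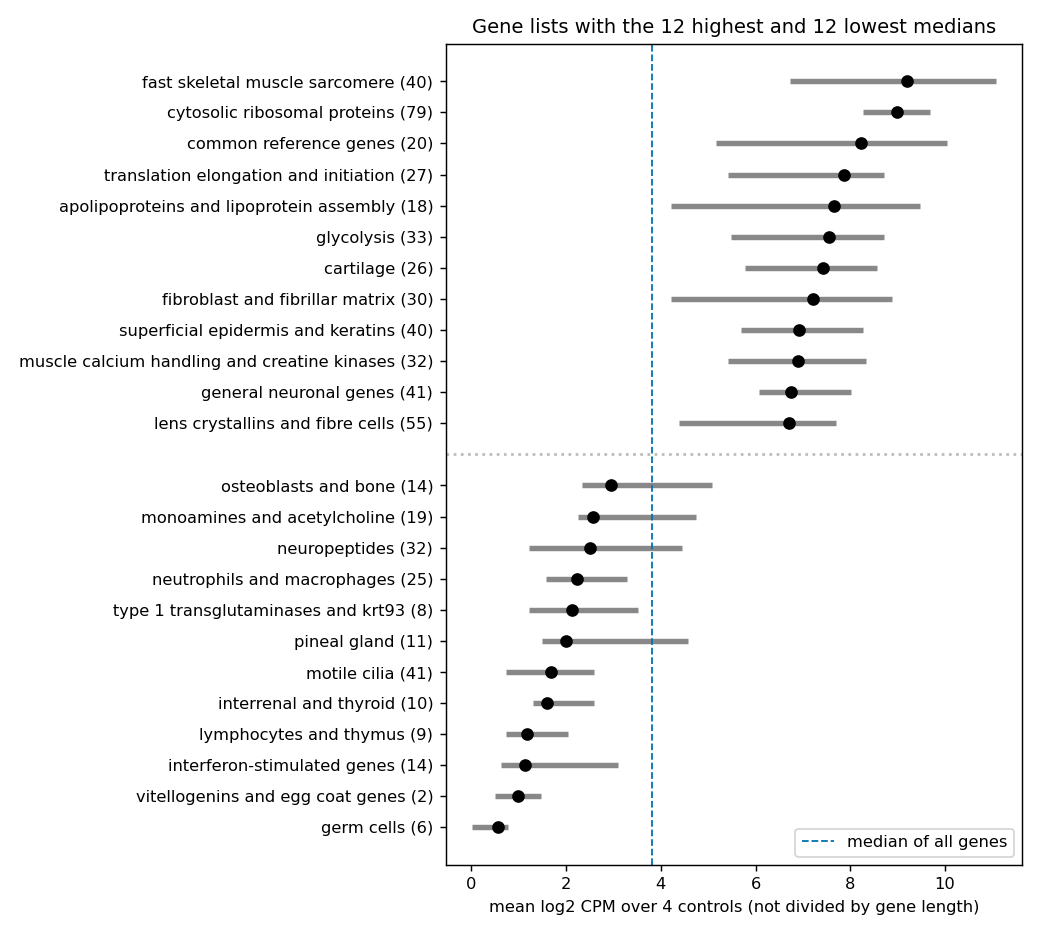
Mean log2 CPM over the 4 controls (x axis) for the 12 gene lists with the highest and the 12 with the lowest median; dots are the median over the list's measured members (number in brackets), bars run from the lower to the upper quartile of the members, and the dashed line is the median of all genes (3.81). Muscle, translation, lipoprotein, cartilage, matrix and epidermis lists lie far to the right of the line, whereas germ cell, interferon, lymphocyte and motile cilia lists lie to its left.

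The sarcomere was led by alpha actin and fast myosin. *actc1b*, a striated muscle alpha actin, was the highest gene of the table, at 14.04 log2 CPM in each control, a value that the shared distribution fixes for whichever gene ranks first. The fast myosin heavy chain *myhz1.1* followed with 13.46, 13.30, 13.46 and 13.46 in controls 1 to 4, and *mylpfa*, a fast myosin regulatory light chain, had 12.18, 12.14, 12.43 and 12.25. The calcium pump *atp2a1*, the parvalbumins *pvalb1* and *pvalb2* and the creatine kinase *ckmb* were also among the 25 highest genes, with means of 12.25, 12.17, 11.99 and 12.11. Slow muscle gave fewer reads. The slow myosin heavy chain *smyhc1* averaged 10.19 ± 0.1, and the slow list took 0.292% ± 0.013 of the sum. Heart muscle took 0.151%, and its ventricular myosin *myh7* (synonym *vmhc*) had 7.18, 7.11, 7.17 and 7.03, far below the fast myosins.

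Epidermis, cartilage and matrix formed the structural part of the profile. *krt4*, a keratin of the superficial epidermis, was the fourth highest gene, with 13.30, 13.06, 12.72 and 13.06 log2 CPM in controls 1 to 4. *col1a1a*, an alpha chain of type I collagen, had 11.74, 11.54, 11.74 and 11.78, and *col2a1a*, the collagen of cartilage and notochord sheath, had 11.57, 10.99, 11.27 and 11.04. Neither collagen spread by more than 0.6 log2 units. In the cartilage list all 26 measured members had a mean of at least 1 and 15 lay in the top 10.0%, whereas bone was lower: the median of its 14 members was 2.95, and the osteoblast transcription factor *sp7* averaged 2.54.

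Genes of secreted plasma proteins, which liver, intestine and yolk can express, were among those of highest mean. Which of these tissues gave the reads cannot be told from whole larvae. *apoa1b*, the main protein of high-density lipoprotein, had 12.01, 12.72, 12.12 and 12.52 log2 CPM in controls 1 to 4, and its paralog *apoa1a* had 12.32, 12.07, 11.89 and 12.14. Their values overlapped, so no order was given to them. *apobb.1*, the structural protein of the lipoproteins that carry yolk lipid, followed with 11.42, 11.33, 11.63 and 11.84, below both in every library, and 8 of the 15 neighbouring pairs among 16 apolipoprotein genes did not overlap. *fetub*, a secreted protease inhibitor of the liver, had 11.16, 12.43, 11.66 and 11.74 and was highest in control 2. *tfa*, transferrin, had 10.01, 9.94, 9.87 and 9.87 and varied by less than 0.2.

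Retina and lens gave many reads. The lens crystallin and fibre cell list took 0.835% ± 0.149 of the sum with 32 of 55 members in the top 10.0%. Cone photoreceptors took 0.711% ± 0.17 with 35 members, and rods 0.338% ± 0.096 with 19. Most of the rod share came from *rho*, which alone took 0.267% of the sum. Among the opsins, the light-sensing proteins of photoreceptors, rod opsin *rho* gave the most reads, with 10.51, 11.63, 11.42 and 11.69 log2 CPM in controls 1 to 4. The ultraviolet opsin *opn1sw1* had 9.9, 10.95, 10.95 and 11.27, the red opsin *opn1lw2* 9.28, 9.29, 9.57 and 10.56, the green opsin *opn1mw1* 8.71, 9.25, 9.42 and 10.18 and the blue opsin *opn1sw2* 7.79, 8.47, 8.63 and 9.17. This order held within each of the 4 libraries. Across libraries each of these neighbours overlapped with the next one, and only the distance between *opn1sw2* and the second green opsin *opn1mw2*, with 2.24, 2.79, 3.49 and 3.57, exceeded the spread. The pineal rod-like opsin *exorh* had 2.78, 2.15, 2.1 and 2.83. The beta crystallin *crybb1* was the highest lens gene with 9.69, 9.38, 9.74 and 9.32, against 5.14, 5.01, 5.24 and 5.24 for the alpha crystallin *cryaa*, and crystallin paralogs of near-identical sequence may share reads.

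Neuronal genes were measured at high and even levels. All 41 members of the general neuronal list had a mean of at least 1, 24 lay in the top 10.0%, and the list took 0.693% ± 0.031 of the sum. *elavl3*, an RNA-binding protein of newly formed neurons, had 9.52, 9.12, 9.26 and 9.19 log2 CPM in controls 1 to 4. Myelin was lower, with a median of 4.17 over 17 members. Myelin basic protein *mbpa* had 4.59 in control 1, against 5.54, 5.49 and 5.8 in controls 2, 3 and 4, and the proteolipid gene *plp1b* had 3.3 in control 1, against 4.32, 4.29 and 4.45. Of the 17 myelin members 3 were variable, against 8.17% of all genes, and 0 without control 1, against 559 of all 18561 genes. With 17 members, the list is too short for these counts to be set apart from those of all genes. In control 1, 9 members had their lowest value, as had 25.7% of all genes, and 6 their highest, as had 35.2% of all genes.

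Genes of motile cilia were low, and those of intraflagellar transport lay near the middle of all genes. Intraflagellar transport, the two-way cargo traffic along the axoneme in which traf3ip1 takes part, had a median of 3.59 over 28 members, against 3.81 for all genes, with none in the top 10.0% and 1 below a mean of 1. Its kinesin motor *kif3a* had 6.0, 5.84, 5.74 and 5.76 log2 CPM in controls 1 to 4, *ift172* had 4.49, 4.16, 4.23 and 4.41 and *ift88* 3.83, 3.56, 3.73 and 3.62, each of them above the values of *traf3ip1* in every library. Genes of motile cilia had a median of 1.68, and 14 of 41 had a mean below 1, against 9.05% of all genes. *foxj1a*, the transcription factor that switches on motile ciliogenesis, had 2.82, 2.49, 2.2 and 2.72.

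The lists of lowest median were those of germ cells, vitellogenins and egg coat, interferon response, lymphocytes, interrenal and thyroid, and motile cilia. None of the 6 germ cell genes measured reached a mean of 1; the germ line helicase *ddx4* had 1.07, 1.0, 1.35 and 0.37 log2 CPM in controls 1 to 4. Of 19 vitellogenin and egg coat genes listed 2 were measured, with a median of 0.985. Measured were also 6 of 14 germ cell, 14 of 37 interferon, 9 of 16 lymphocyte and 10 of 21 interrenal and thyroid genes listed. Listed genes without a value, dropped by the authors' filter or not matched by symbol, do not enter the medians. For such lists the median may lie above that of all listed genes. Lymphocyte and thymus genes had a median of 1.18 over 9 members, and the V(D)J recombinase gene *rag1* had 1.42, 2.08, 2.1 and 2.52. Interferon-stimulated genes had a median of 1.12 with 6 of 14 below 1, interrenal and thyroid genes 1.6 over 10, and neutrophil and macrophage genes 2.23 over 25. Of 201 markers set to define the lists, 181 were measured and 171 had a mean of at least 1, and the other markers were not analysed here. Among the defining markers of small organs, *myl7* of the heart had a mean of 3.98, *ins* of the pancreatic islets 3.79 and *nphs1* of the kidney glomerulus 1.84 log2 CPM.

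Most genes varied little between the 4 clutches. Among the 18561 genes with a mean of at least 1, the median SD was 0.179 log2 units, with quartiles of 0.117 and 0.275. A gene was counted as variable when its highest control was at least 2-fold over its lowest, which 1517 genes, 8.17%, were; 265 reached a range of at least 2 log2 units and 59 a range of at least 3. The SD was larger at low levels, where fewer fragments were counted: its median was 0.289 for genes of 1 to 2 log2 CPM, where counting error alone would give 0.21, and 0.135 for genes of 6 to 8, where counting error would give 0.036. The spread of well-measured genes thus exceeded the counting error.

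**Figure D2:**
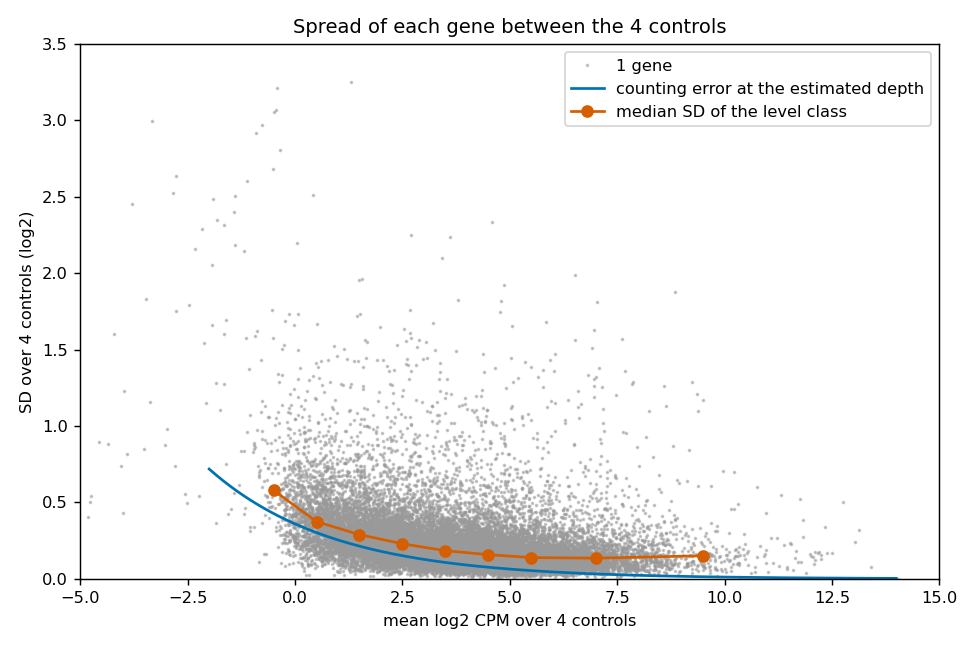
SD of each gene over the 4 controls (y axis, log2 units) against its mean log2 CPM (x axis); grey points are genes, the orange line joins the median SD of level classes and the blue line is the SD that counting error would give at the estimated depth. The median SD lies above the counting line at every level and levels off near 0.14 above 5 log2 CPM.

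Control 1 stood apart from the other libraries. For each gene the library farthest from the mean of the other 3 was noted. Control 1 was that library for 56.1% of the variable genes, against 18.3% for control 4, 16.7% for control 2 and 8.83% for control 3, and it was on the low side for 690 genes and on the high side for 161. Over all 18561 genes, most of which differed little, control 1 was apart for 36.3%, and there the high side (3717 genes) outnumbered the low side (3021 genes). Between control 1 and another control, 604 to 867 genes differed at least 2-fold, and between any pair of the other 3 libraries 268 to 276. Without control 1 the number of variable genes was 559, in place of 1517. The list means, taken over members with a mean of at least 1, were for most programmes close across the libraries, with a median range of 0.319 log2 units over 64 lists, and 4 lists had a range of at least 1: exocrine pancreas, enterocytes, red blood cells and immediate early genes. In the first 3 control 1 stood apart, and in the last control 2. The range of the immediate early list was below 1 with the median of members (0.939) and after re-centring the libraries on housekeeping lists (0.994).

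**Figure D3:**
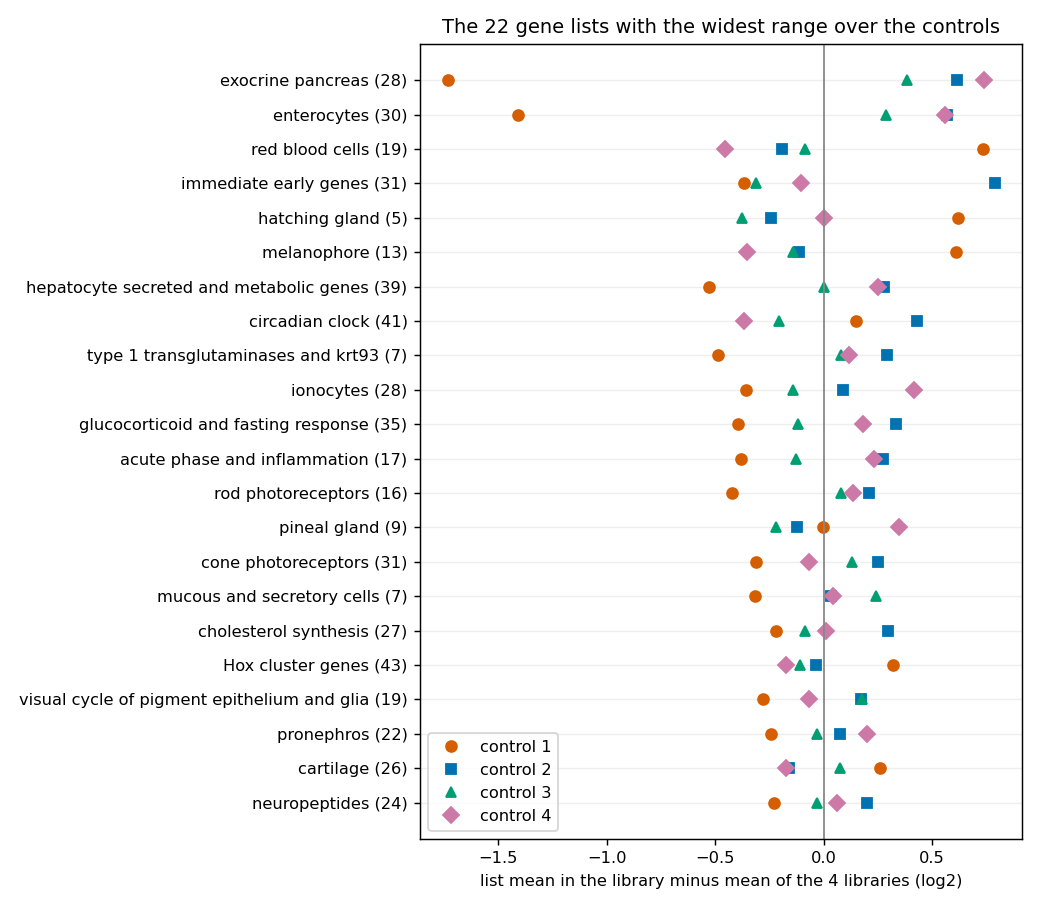
Difference of each library's list mean from the mean of the 4 libraries (x axis, log2 units) for the 22 gene lists with the widest range; each symbol is 1 control, and the number in brackets is the members averaged. Control 1 lies far to the left for exocrine pancreas and enterocytes and to the right for red blood cells, hatching gland and melanophores, and control 2 lies to the right for immediate early genes. Of the 5 hatching gland members only 1, *he1.1*, was variable.

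Digestive enzymes of the exocrine pancreas had the widest range. These proteases, amylases and lipases are made by acinar cells and released into the gut. The list mean was 4.42 log2 CPM in control 1, against 6.77, 6.54 and 6.89 in controls 2, 3 and 4, and the share of the sum was 0.157%, against 0.862, 0.713 and 0.947%. Of 28 members with a mean of at least 1, 26 were variable, and in all 26 of them control 1 was the library that stood apart, on the low side, as 3.72% of all genes with a mean of at least 1 were. Without control 1, 0 members were variable. The carboxypeptidase *cpa5*, the member of highest level, had a linear value of 219 CPM in control 1, against 1265, 949 and 1066 CPM in controls 2, 3 and 4. On the log2 scale the trypsin *prss59.2* had 7.74, against 9.97, 9.72 and 10.09, and the amylase *amy2a* 3.34, against 6.58, 6.52 and 6.95. Control 1 lay below all other libraries for each of them. The carboxypeptidase *cpa1* had 2.14 in control 1, against 5.23, 5.61 and 6.2, and the pancreatic phospholipase *pla2g1b* had 1.11, against 5.1, 4.33 and 4.67, the lowest of their 4 values being 16.7-fold and 15.9-fold below the highest. The transcription factor *ptf1a*, which specifies acinar cells, did not follow the enzymes, with 2.26, 2.1, 1.97 and 1.94 in controls 1 to 4, nor did *cuzd1.1*, which encodes a zymogen granule protein in mammals, with 3.63, 3.2, 3.49 and 3.63. *ptf1a* averaged only 4.21 CPM, and RNA of whole larvae does not tell which cells its reads came from. Among the 25 enzyme genes none of the 24 neighbouring pairs was apart in level beyond its spread.

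Intestinal genes showed the same pattern over the libraries. The enterocyte list averaged 3.37 log2 CPM in control 1, against 5.35, 5.07 and 5.34 in controls 2, 3 and 4. Of 30 members, 26 were variable, against 8.17% of all genes. In all 26 of them control 1 was apart and low, against 3.72% of all genes. Without control 1, 2 members were variable, as were 559 of all 18561 genes. The acidic chitinase *chia.2* had 6.06 in control 1, against 9.92, 9.47 and 9.97 in controls 2, 3 and 4, and the xenobiotic cytochrome *cyp3a65* had 4.54, against 7.98, 7.48 and 7.85. The fatty acid-binding protein *fabp2* had 6.79, against 8.81, 8.54 and 8.58, and *vil1*, villin of the brush border, had 6.7, against 8.53, 8.47 and 8.16. Control 1 was below the other libraries throughout. The peptide transporter *slc15a1b* had 2.86, against 5.31, 4.73 and 5.01, and the phospholipase gene *plb1* had 0.31, against 4.87, 4.45 and 4.09. Among genes with a mean of at least 1 and a full gene symbol, *plb1* had the largest SD (3.43 ± 2.1). *cdx1b*, a transcription factor of intestinal identity, differed less, with 3.57, 3.78, 3.84 and 4.13 in controls 1 to 4.

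Most liver genes were lowest in control 1. Of 39 members 31 had their lowest value there, as had 25.7% of all genes, and 2 their highest. The list mean was 6.21 log2 CPM in control 1, against 7.01, 6.74 and 6.99, and 14 of 39 members were variable, against 8.17% of all genes. In 13 of them control 1 was apart and low, against 3.72% of all genes, and without control 1 0 members were variable. Fatty acid-binding protein *fabp10a* had 5.66 in control 1, against 7.79, 7.39 and 7.8 in controls 2, 3 and 4, and transthyretin *ttr*, a carrier of thyroid hormone, had 0.05, against 3.7, 3.21 and 3.73. Transferrin was even, as given above, and the apolipoprotein gene *apoa2* had 10.91, 10.91, 10.91 and 11.12. The apolipoprotein gene *apobb.2* went the other way, with 5.26 in control 1, against 3.6, 3.44 and 3.2. Of 18 smooth muscle members, 3 were variable, against 8.17% of all genes, all with control 1 apart and low, against 3.72%. Without control 1, 0 were variable, against 559 of all 18561 genes. With 18 members, the list is too short for its counts of variable members to be set apart from those of all genes. The smooth muscle list range was 0.343, near the median of all lists. In control 1, 12 of its members were lowest, as were 25.7% of all genes, and 3 highest, as were 35.2%. *acta2*, its alpha actin, had 6.88, against 8.04, 8.09 and 8.12, and its intermediate filament *desmb* had 3.68, against 4.88, 4.85 and 4.81.

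**Figure D4:**
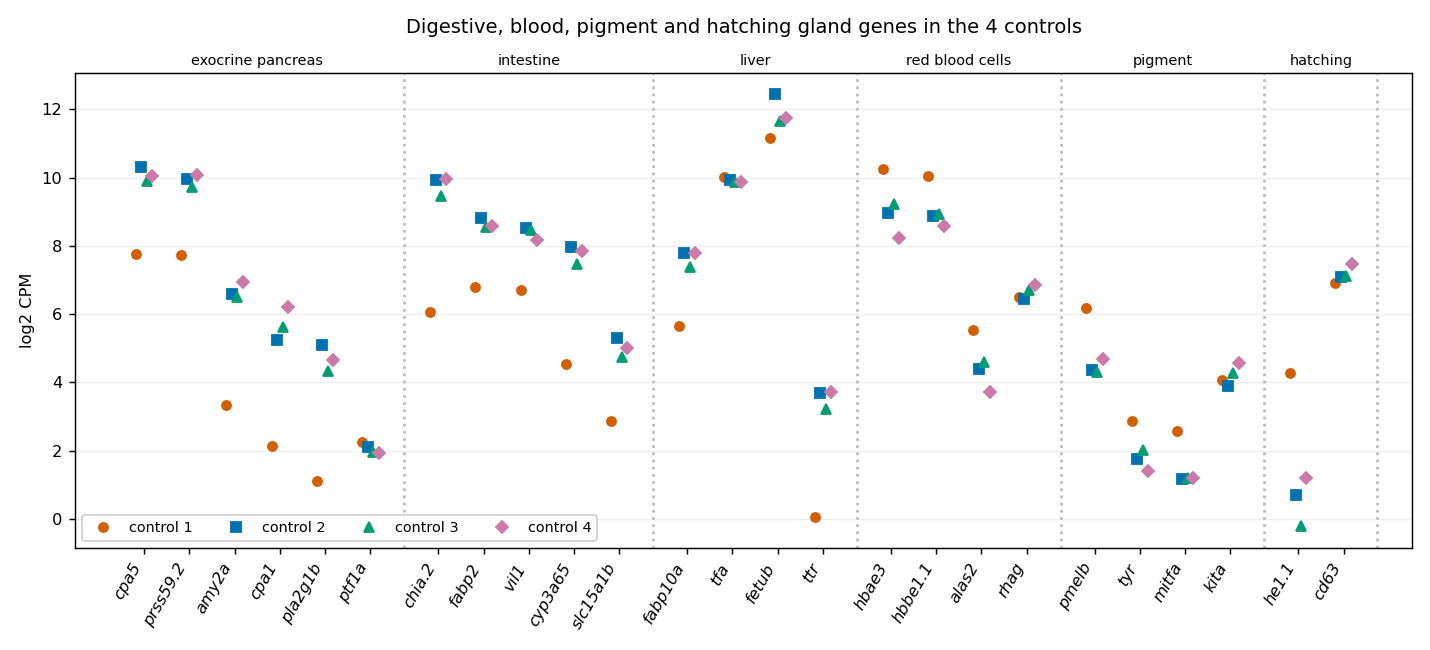
Log2 CPM (y axis) of single genes of the exocrine pancreas, intestine, liver, red blood cells, pigment cells and hatching gland (x axis) in the 4 controls, 1 symbol per library. Control 1 lies below the other libraries for the digestive enzymes and above them for globins, *pmelb*, *tyr*, *mitfa* and *he1.1*, whereas *ptf1a*, *tfa*, *rhag*, *kita* and *cd63* lie close together.

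Red blood cell and melanophore genes were highest in control 1. Embryonic globins carry oxygen in the first red cells, and with the other red cell genes they gave a list mean of 6.24 log2 CPM in control 1, against 5.32, 5.42 and 5.05 in controls 2, 3 and 4, and 11 of 19 members were variable with control 1 apart and high, as were 0.867% of all genes with a mean of at least 1. Without control 1, 0 members were variable. The alpha globin *hbae3* had 10.26 in control 1, against 8.95, 9.23 and 8.23, and the beta globin *hbbe1.1* had 10.05, against 8.88, 8.93 and 8.59. *alas2*, the first enzyme of heme synthesis in red cells, had 5.54, against 4.39, 4.61 and 3.73. The red cell ammonium channel gene *rhag* was even, with 6.51, 6.43, 6.7 and 6.86 in controls 1 to 4, so the difference did not extend to all red cell genes. Globin paralogs may share reads, and all 8 globin genes were highest in control 1.

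The hatching enzyme *he1.1*, a protease that digests the egg envelope, had 4.29 log2 CPM in control 1, against 0.69, -0.21 and 1.21 in controls 2, 3 and 4, a range of 4.5. It was the only variable gene of the 5 on the hatching gland list. It was also the only defining marker of that list with a value, since *he1.2* and *ctslb* were not measured. The tetraspanin *cd63* had 6.92, 7.1, 7.12 and 7.46 and *npsn*, a related metalloprotease gene, 3.85, 3.94, 3.81 and 4.24 in controls 1 to 4, with control 1 lowest for *cd63* and control 4 highest for both. The melanophore list averaged 4.03 in control 1, against 3.3, 3.28 and 3.06. *pmelb*, a scaffold protein of the pigment granule, had 6.19, against 4.36, 4.31 and 4.7, tyrosinase *tyr* had 2.87, against 1.77, 2.02 and 1.39, and *mitfa*, the transcription factor of the lineage, had 2.59, against 1.18, 1.21 and 1.19. Of 13 melanophore members 7 were variable, against 8.17% of all genes. Without control 1, 1 was variable, as were 559 of all 18561 genes. The receptor *kita* had no such order, with 4.07, 3.89, 4.28 and 4.58. Xanthophore and iridophore genes were split, with list means of 4.23, 4.05, 4.0 and 3.96 in controls 1 to 4. Of 20 members 7 were variable, and 1 without control 1. In 4 of the 7 control 1 was apart and high, against 0.867% of all genes, and in 3 apart and low, against 3.72%. Hox genes, which pattern the body axis, were higher in control 1 by a smaller step, with list means of 3.77, 3.41, 3.34 and 3.27 in controls 1 to 4; 39 of 43 members were highest in control 1, as were 35.2% of all genes with a mean of at least 1, and 1 was variable.

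Photoreceptor lists had their lowest means in control 1, although the median of the cone members was lowest in control 4. The rod list averaged 4.66 log2 CPM in control 1, against 5.3, 5.17 and 5.22, and the cone list 5.83, against 6.4, 6.28 and 6.08. Of 31 cone members 21 were variable, against 8.17% of all genes. In 10 control 1 was apart and low (3.72% of all genes) and in 6 control 4 (0.867%). Without control 1, 9 were variable (559 of all 18561 genes), and without control 4, 8 were (1114 of all genes). Of 16 rod members 8 were variable, 7 with control 1 apart and low, and 1 without control 1. The cone transducin *gnat2* had 8.3 in control 1, against 9.13, 9.02 and 9.11 in controls 2, 3 and 4.

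Immediate early genes were highest in control 2. Many of them are transcription factors that are switched on within minutes of neuronal activity, growth factor signals or stress. Their list mean was 5.66 log2 CPM in control 2, against 4.5, 4.55 and 4.76 in controls 1, 3 and 4. Of 31 members, 21 were variable, 15 of them with control 2 apart and high, as were 0.63% of all genes with a mean of at least 1. Without control 2, 5 members were variable, as were 1114 of all 18561 genes. *fosab* had 7.61 in control 2, against 5.35, 4.83 and 5.29 in controls 1, 3 and 4, and *egr1* had 8.01, against 6.34, 6.66 and 6.42. *npas4a*, an activity-dependent factor of neurons, had 6.86, against 3.78, 4.81 and 4.83. *fosl1a* had 4.7, against 1.88, 1.83 and 2.34, and *egr2a* 3.54, against 0.65, 0.45 and 1.19. Control 2 was highest for all 5 of these genes. Some members had another order: *klf2a*, a factor that responds to blood flow, was highest in control 3, with 5.82, 6.56, 7.34 and 6.6 in controls 1 to 4, and *nr4a2a* highest in control 1, with 5.12, 4.64, 4.82 and 4.54. Glucocorticoid and fasting genes were lowest in control 1 and highest in control 2, with list means of 5.34, 6.07, 5.62 and 5.92 in controls 1 to 4. *pck1*, the key enzyme of glucose synthesis, had 7.24, 9.07, 8.34 and 8.73, and *fkbp5*, a target of the glucocorticoid receptor, 7.62, 8.72, 7.86 and 8.44.

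Circadian clock genes set control 4 apart, in opposite directions within the list. In the clock the activators clock and bmal (*arntl* genes) drive the period and cryptochrome repressors and the nr1d receptors, so that members peak at different hours of the day, and the zebrafish clock also responds directly to light. Of 41 members 31 were variable, against 8.17% of all genes; 16 had control 4 apart and low, as 0.867% of all genes had, and 6 had control 4 apart and high, as 0.63% had. Without control 4, 20 members were variable, as were 1114 of all 18561 genes. With controls 1, 2 and 3 left out in turn, 25, 27 and 30 members were variable. The list mean, 5.66, 5.94, 5.31 and 5.14 log2 CPM in controls 1 to 4, did not show the split between low and high members. Among the repressors, *per1b* had 3.71 in control 4, against 7.8, 8.04 and 6.54 in controls 1, 2 and 3, and *per3* had 4.19, against 7.36, 7.39 and 7.18. *per1a* had 5.72, 6.65, 3.94 and 2.77 in controls 1 to 4, with control 3 also low. *per2*, a light-induced period gene, had another order, with 8.67, 8.15, 7.52 and 7.41. The nuclear receptor *nr1d1* had 4.71 in control 4, against 7.65, 9.03 and 6.72 in controls 1, 2 and 3, and the transcription factor *tefa*, which activates light-responsive genes, 5.04, against 7.22, 7.64 and 6.68. Cryptochromes were split: *cry2* had 6.14, 6.36, 4.66 and 3.57 in controls 1 to 4, whereas *cry1bb* had 7.93 in control 4, against 4.95, 5.16 and 6.12.

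For some other clock genes control 4 had the highest values, and it was apart and high in 6 of the 41 members. Of the genes named here and above, *clocka*, *clockb*, *arntl1a*, *arntl1b* and *tefa* were chosen after their values had been seen. The bZIP repressor *nfil3-5* had 9.24 log2 CPM in control 4, against 7.19, 6.85 and 6.61 in controls 1, 2 and 3. *clocka* had 5.78, against 5.07, 4.48 and 4.88, *arntl1a* 5.26, against 4.31, 4.41 and 4.55, and *arntl1b* 5.18, against 4.19, 4.04 and 4.42, while *clockb* was even, with 6.57, 6.5, 6.61 and 6.7 in controls 1 to 4. Outside the clock list, *aanat2*, the enzyme that sets the daily rhythm of pineal melatonin, had 2.84 in control 4, against 0.71, 1.09 and 0.39 in controls 1, 2 and 3. Several photoreceptor genes were also lowest in control 4. The cone arrestin *arr3a* had 7.61 in control 4, against 8.79, 9.65 and 9.17, and the cone phosphodiesterase subunit *pde6ha* had 3.98, against 5.21, 6.85 and 6.55. The rod factor *nr2e3* had 1.89, against 3.22, 3.23 and 3.09. The red, green, blue and ultraviolet opsins, in contrast, were highest there.

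**Figure D5:**
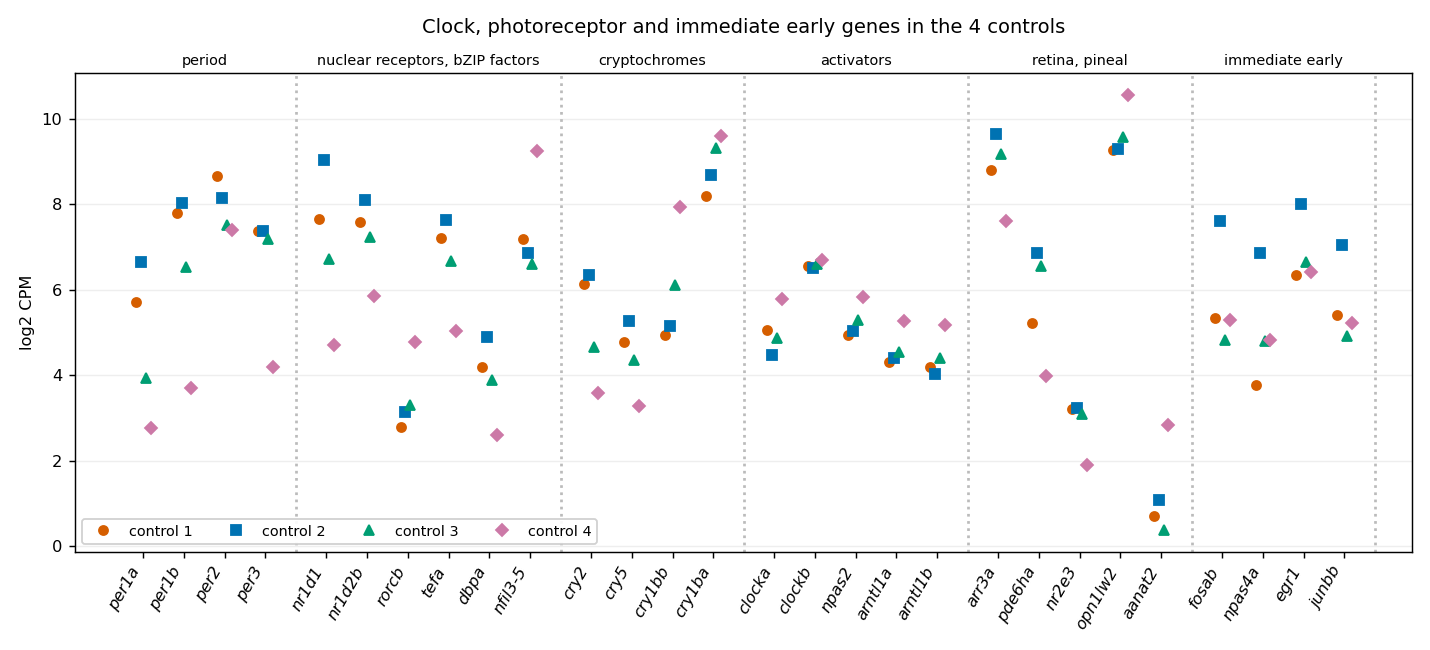
Log2 CPM (y axis) of clock, photoreceptor, pineal and immediate early genes (x axis) in the 4 controls, 1 symbol per library. Control 4 lies lowest for the period genes, *nr1d1*, *tefa*, *cry2*, *arr3a* and *pde6ha* and highest for *nfil3-5*, *cry1bb*, *clocka* and both *arntl1* genes, and control 2 lies highest for the 4 immediate early genes.

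Ionocytes, the ion-transporting cells of the skin, were highest in control 4, with list means of 4.83, 5.27, 5.04 and 5.6 log2 CPM in controls 1 to 4; 7 of 28 members were variable with control 4 apart and high, as were 0.63% of all genes with a mean of at least 1. In all, 10 were variable, 5 without control 1 and 3 without control 4. Of all 18561 genes, 559 were variable without control 1 and 1114 without control 4. The epithelial calcium channel *trpv6* had 6.69 in control 4, against 3.6, 4.27 and 4.09 in controls 1, 2 and 3. The sodium pump subunit *atp1a1a.2* had 7.24, against 6.11, 6.14 and 5.89, and the potassium channel gene *kcnj1a.2*, which was on no list, 4.32, against 1.88, 1.52 and 1.46. The sodium pump subunit of highest level, *atp1a1a.1*, was even, with 9.1, 9.18, 9.31 and 9.25 in controls 1 to 4, and the ammonium transporter *rhcga* was highest in control 2 and lowest in control 4, with 5.82, 6.83, 6.07 and 5.59.

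Control 3 stood apart least often. Of 31 heat shock and chaperone genes, 6 were variable, against 8.17% of all genes. Without control 3, 3 were variable (1291 of all 18561 genes), and without control 4, 4 were (1114 of all genes). Control 4 was apart and low in 2 of the 6 and apart and high in 1. In control 3, 13 genes were highest, as were 18.4% of all genes. In control 4, 16 were lowest, as were 24.5% of all genes. The list means were 5.51, 5.55, 5.75 and 5.36 in controls 1 to 4, whereas its share of the sum was highest in control 2 (1.05%). *hspa1b*, an inducible member of the Hsp70 family, had 4.27 log2 CPM in control 3, against 2.37, 3.0 and 3.27 in controls 1, 2 and 4, and *hsp90aa1.1*, the muscle Hsp90, had 8.02, against 6.74, 7.49 and 6.8, whereas the constitutive *hspa8* had 11.89, 12.22, 11.97 and 12.12 in controls 1 to 4. A further order, with controls 1 and 3 above controls 2 and 4, was seen in genes of the giant muscle proteins and in some lens fibre genes. The titin genes *ttn.1* and *ttn.2* had 10.46, 9.08, 10.59 and 9.69 and 10.69, 9.34, 10.88 and 9.98 in controls 1 to 4. The calcium release channel *ryr3* had 8.61, 7.64, 8.38 and 7.98, and the collagen chaperone *serpinh1b* 4.97, 3.71, 5.43 and 3.42. In the lens, the beaded filament genes *bfsp1* and *bfsp2* had 6.37, 5.38, 6.05 and 5.24 and 5.91, 5.05, 5.59 and 4.8, and *lgsn*, a glutamine synthetase-like protein of the fibre cell, 5.55, 4.47, 5.34 and 4.24, whereas the water channel *mipa* had 6.48, 6.5, 6.6 and 6.8 and the alpha crystallin *cryaa* was even. Of the fast muscle list 5 of 40 members were variable, against 8.17% of all genes. Without control 1, 2 were variable (559 of all 18561 genes), and without control 2 also 2 (1114 of all genes). The list means were 8.76, 8.6, 8.81 and 8.57 and the shares of the sum 8.12, 7.04, 8.06 and 7.08%, with controls 1 and 3 again above controls 2 and 4.

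The proteasome, ribosome, general neuronal and heart muscle lists were among those that varied little. The proteasome, which degrades proteins marked for disposal, had list means of 5.59, 5.58, 5.55 and 5.57 log2 CPM in controls 1 to 4, and 0 of 39 members were variable. General neuronal genes had 6.71, 6.76, 6.74 and 6.63 with 1 of 41 variable, heart muscle 4.08, 3.97, 4.1 and 4.05 with 0 of 18, and ribosomal proteins 8.87, 9.05, 8.86 and 8.97 with 0 of 78, all below the 8.17% of all genes. With 18 members, the heart list is too short for its count to be set apart from that share. The share also depended on level, with 4.73% of genes of 5 to 6 log2 CPM variable, 5.3% of 6 to 8 and 7.03% of 8 or more. From such shares the counts of the proteasome and general neuronal lists cannot be set apart either. Ribosomal protein genes still moved together by a small step, with 56 of 78 highest in control 2, as were 22.7% of all genes. After re-centring on housekeeping lists, which include these genes, their list mean was highest in control 1. It was then 8.99, 8.96, 8.88 and 8.93 in controls 1 to 4. Among the 15 genes of smallest SD with a mean of at least 5 were the proteasome ATPases *psmc3*, with 6.03, 6.03, 6.05 and 6.05, and *psmc2*, with 6.3, 6.28, 6.27 and 6.28, and *naca*, a chaperone of nascent chains on the ribosome, with 10.36, 10.38, 10.35 and 10.36. Their SDs of 0.011, 0.014 and 0.011 were below the median counting error of genes of 6 to 8 (0.036) and of 8 or more log2 CPM (0.018). *naca* lies high in its class, where the counting error is smaller than that median.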

How the data were processed

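RNA of pools of whole larvae was sequenced on a DNBSEQ platform. The authors cleaned the reads, aligned them with HISAT and Bowtie2 (genome build GRCz11, per the submitters' processing notes), counted fragments per gene (RSEM), dropped genes whose mean over the libraries was not above 1 CPM, and deposited log2 CPM values made with voom in limma, over all 8 libraries. The control values share 1 distribution, as quantile normalization would give, a step not given in the sources used here. Another deposited table holds the authors' fold changes and p-values, of which only gene identifiers and symbols were used, where 7 symbols had been turned into dates. No deposited column lacked a sample.

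From the 4 control columns the mean, SD and range of each gene, list means over members with a mean of at least 1 (5 members or more) and shares of the linear CPM sum were computed in Python 3.11.15 with numpy 2.4.6, pandas 2.3.3 and matplotlib 3.10.9, after the scripts were tested on simulated data. Depth was estimated from the spacing of values that at least 8 genes shared between 2 and 8 CPM. The samples of one group give no comparison between groups, and no test was made. Symbols were matched to the authors' symbols and to a RefSeq table of gene names, which listed 19636 of the identifiers (96.2%). Gene families were ordered by mean level, and neighbours were called apart where the values of the 4 libraries did not overlap.

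Gene lists and named genes were chosen with earlier results of these data known, and 3 genes were dropped from lists after their values were seen. Genes named were the defining markers, per list the 5 of highest level, the 3 of largest SD and the 2 lowest, the 25 of highest level and of largest SD and the 15 of smallest SD (mean of at least 5), gene families and *traf3ip1*. Chosen outside that rule, after their values had been seen, were *arntl1a*, *arntl1b*, *bfsp1*, *bfsp2*, *cdx1b*, *clocka*, *clockb*, *kcnj1a.2*, *klf2a*, *nr4a2a*, *rhcga* and *tefa*. Levels per kilobase, promoters and mitochondrially encoded genes were not analysed here.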

Additional observations from a re-analysis of the deposited data

Results flagged for a closer look

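For each of 64 gene lists and 122 named genes it was asked whether the highest or the lowest of the 4 controls lay far from the other 3, by the gap to the nearest library divided by the whole range. Chance puts about 1 in 20 groups of 4 past the critical value of Dixon's test, 6.15% of all genes were past it, and many of the named genes were chosen for their spread. No cause of these values was tested.

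Among the lists, exocrine pancreas had a ratio of 0.856, enterocytes 0.858, and smooth muscle 0.843, each with control 1 lowest. Interrenal and thyroid genes had 0.934, with list means of 2.48, 2.16, 2.13 and 2.14 log2 CPM in controls 1 to 4, and cerebellar markers 0.83, with 4.69, 4.93, 4.89 and 4.92. The digestive genes past the value, all with control 1 low, were *cpa5* (0.836), *prss59.2* (0.842), *amy2a* (0.88), *chia.2* (0.872), *fabp2* (0.866), *cyp3a65* (0.854), *plb1* (0.83) and *ttr* (0.859). Control 1 was also lowest for *acta2* (0.936), *desmb* (0.94), *plp1b* (0.86), *gnat2* (0.865) and *tgm1l3* (0.925), and highest for *mitfa* (0.979). Control 4 was apart for *per3* (0.935), *nr2e3* (0.9) and *mcm6* (0.885), where it was lowest, and for *kcnj1a.2* (0.855) and *stm* (0.881), where it was highest. Ratios of 1.0 for *myhz1.1* and *apoa2* came from 3 identical values, which mark the same rank in 3 libraries, and *col1a1a* had 0.848 with control 2 lowest, at a range of 0.24 log2 units.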

How the results depend on the processing

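The number of variable genes was 1517, and 743 with a minimum mean of 3 log2 CPM, 2272 with no minimum, 1052 with a pseudocount of 1 CPM and 1631 after re-centring on housekeeping lists. Leaving out each control in turn gave 559 to 1291, lowest without control 1. A criterion chosen after seeing the data, an SD of at least 2 times the counting error, gave 1480. Control 1 was the library apart in 56.1% of variable genes, and in 62.2% with a minimum mean of 3. The number of lists with a range of at least 1 was 4, but 7 with the median of members in place of the mean, and 1 to 4 without each control. Without each control the range was 0.357 to 2.47 log2 units for exocrine pancreas, 0.279 to 1.98 for enterocytes and 0.371 to 1.19 for red blood cells, lowest without control 1, and 0.262 to 1.16 for immediate early genes, lowest without control 2. Fewer libraries make a range smaller or equal by construction. Re-centring removed shifts of -0.122, 0.092, -0.017 and 0.047 in controls 1 to 4. The lists used for it were ribosomal proteins, nuclear-encoded respiratory chain and proteasome, and they were not all even. Of 93 respiratory chain members 85 were lowest in control 1, as were 25.7% of all genes. Their list means were 5.88, 6.21, 6.13 and 6.18 log2 CPM in controls 1 to 4. The library that was lowest or highest in a list depended on the summary for many lists. Among them were superficial epidermis, myelin, fast muscle, hatching gland, cones, ribosomal proteins, general neuronal genes, heart muscle, proteasome, heat shock genes and the clock. By the mean, the median, the re-centred mean and the share of the sum, control 1 was lowest for exocrine pancreas, enterocytes, liver, rods and smooth muscle. By all of these summaries control 1 was highest for red blood cells, melanophores and Hox genes, and control 2 for immediate early genes. These directions and the list counts without single libraries were added after seeing the data. The median SD was 0.148 to 0.213 over all alternatives. The level per kilobase was not run, since no transcript lengths were used here. No paired analysis was possible because the results come from no test. At the estimated depth, the median counting error is 0.291 log2 units for genes of 0 to 1 log2 CPM and 0.21 for genes of 1 to 2. Differences of low genes are therefore poorly resolved.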

Other observations

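A few genes outside the programmes described above also differed between single libraries. The replication helicase subunits *mcm2* and *mcm6*, which cells express as they prepare to copy their DNA, had 5.87 and 5.38 log2 CPM in control 4, against 6.63, 6.88 and 6.74 for *mcm2* and 6.18, 6.28 and 6.23 for *mcm6* in controls 1, 2 and 3. The cell cycle and DNA replication list did not follow them, with means of 5.32, 5.09, 5.16 and 5.16 in controls 1 to 4. Of its 39 members 1 was variable, 19 were lowest in control 2 and 14 in control 4. By share of the sum, control 4 was lowest, at 0.217%. *stm*, starmaker, a matrix protein of the otolith, had 9.38 in control 4, against 8.44, 8.5 and 8.55. The hair cell and otolith matrix list was even, with means of 3.91, 3.97, 3.92 and 3.95 in controls 1 to 4. Of its 21 members 5 were highest in control 4, as were 23.7% of all genes, although its share of the sum was highest there, at 0.117%. *krt93*, a keratin, had 0.15 in control 1 (1.11 CPM, a low value), against 2.27, 1.79 and 2.24 in controls 2, 3 and 4. The transglutaminase *tgm1l3* had 1.88, against 3.97, 4.01 and 4.14. Of the 7 members of their list with a mean of at least 1, these 2 were variable. In control 1, 4 members were lowest, as were 25.7% of all genes, and 1 was highest, as were 35.2%. The main keratin list of the superficial epidermis had means of 6.96, 7.1, 7.01 and 7.09 in controls 1 to 4, a range of 0.143, and its lowest library depended on the measure: by share of the sum it was highest in control 1, at 2.48%, against 2.27, 2.03 and 2.27% in controls 2, 3 and 4. Transglutaminase paralogs may share reads.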
